A study of Mus musculus with 4 samples.

Results

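The genes described here are 6 genes of membrane proteins of the mouse lens, taken by name from the 14924 genes of the expression table. They are the connexin genes *Gja1* and *Gja3*, the aquaporin genes *Mip*, *Aqp1* and *Aqp5*, and *Lim2*, which encodes a membrane protein of the lens fibers. Stranded mRNA-seq with single-end reads gave their mRNA levels in lenses of S100A4 null mice, kept on a C57BL/6J background, and of wild type (WT) mice of the same background. There were 2 libraries in each group, and each library came from a pool of 6 to 12 lenses, from mice 1 month old. The null mice lack *S100a4*, which encodes a calcium-binding protein of the S100 family, in the whole body and not in the lens alone, and mice of both sexes were used in the study. The table was made from 81602367 and 74108017 reads on genes in the S100A4 null libraries and from 70253985 and 68038158 in the WT libraries. Reads on a gene were scaled by the size factor of their library but not by gene length, and 1 read was worth between 0.856 and 1.09. *S100a4* itself was at 14.6 and 18.2 in the S100A4 null libraries and at 14420 and 14385 in the WT libraries, so each library matched its label. The libraries are separate pools, and p-values measure the spread between such pools.

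The lens is made of a single layer of epithelial cells over a mass of elongated fiber cells, and it has no blood vessels. Its cells therefore pass ions, small metabolites and water through membrane channels. Connexins assemble into gap junctions, which join the cytoplasm of neighboring cells, and aquaporins are water channels. *Gja1* encodes connexin 43, the main connexin of the lens epithelium, and *Gja3* encodes connexin 46, which joins fiber cells to each other. *Mip* encodes aquaporin 0, the most abundant membrane protein of lens fibers, which serves as a water channel and in adhesion between fibers. *Aqp1* encodes the water channel of the lens epithelium and *Aqp5* a water channel found in lens cells and in gland epithelia. Mutations of *Mip*, *Gja3* and *Lim2* are known causes of cataract.

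*Gja1* (ENSMUSG00000050953) lies on mouse chromosome 10 (build GRCm38) from 56377330 to 56402513, and *Mip* (ENSMUSG00000025389) on the same chromosome from 128225838 to 128231812. *Gja3* (ENSMUSG00000048582) lies on chromosome 14 from 57034460 to 57058100, on the minus strand, and the other 5 genes on the plus strand. *Aqp1* (ENSMUSG00000004655) lies on chromosome 6 from 55336432 to 55348555, *Aqp5* (ENSMUSG00000044217) on chromosome 15 from 99590782 to 99594829 and *Lim2* (ENSMUSG00000093639) on chromosome 7 from 43427670 to 43435996. The reads counted on a gene came from all of its exons, and isoforms were not told apart.

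The promoters of *Gja1* and *Aqp1* are shown because these genes, from different chromosomes, had nearly the same profile over the 4 libraries, and that of *Mip* because it is by far the most abundant of the 6. Each is the 250 bases before the gene's start in RefSeq (GRCm38.p6), read 5′ to 3′ on the plus strand, in lower case. Capitals mark matches, on either strand, to the GC box (GGGCGG), the Maf half-site (TGCTGA), the core bound by Crx and Otx factors (TAATCC) or the TATA box (TATAAA), and no match overlapped another.
Gja1 chr10:56377050-56377299: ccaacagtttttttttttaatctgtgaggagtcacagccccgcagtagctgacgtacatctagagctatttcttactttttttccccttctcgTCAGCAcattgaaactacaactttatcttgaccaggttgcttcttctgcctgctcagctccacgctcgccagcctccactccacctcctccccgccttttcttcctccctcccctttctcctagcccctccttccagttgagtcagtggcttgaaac
Aqp1 chr6:55336049-55336298: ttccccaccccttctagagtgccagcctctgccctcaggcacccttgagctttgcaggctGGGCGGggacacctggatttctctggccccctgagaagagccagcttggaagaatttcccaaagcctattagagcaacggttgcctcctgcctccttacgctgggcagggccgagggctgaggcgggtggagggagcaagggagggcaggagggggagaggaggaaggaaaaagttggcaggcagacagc
Mip chr10:128225560-128225809: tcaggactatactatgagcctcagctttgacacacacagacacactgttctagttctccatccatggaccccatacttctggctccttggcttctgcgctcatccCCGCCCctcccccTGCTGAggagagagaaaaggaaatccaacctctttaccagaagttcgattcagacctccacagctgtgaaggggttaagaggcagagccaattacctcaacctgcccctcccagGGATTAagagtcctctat

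The *Gja1* window held 1 Maf half-site, the *Aqp1* window held 1 GC box, and the *Mip* window held 1 GC box, 1 Maf half-site and 1 Crx and Otx core. The pair with the like profile thus shared none of these motifs, and the TATA box was in none of the 3 windows. Among 32851 promoter windows of this length, 32.7% held the GC box, 16.1% the Maf half-site, 6.25% the Crx and Otx core and 12.4% the TATA box on at least 1 strand. GC content was 50% for *Gja1*, 62% for *Aqp1* and 52% for *Mip*, with 6, 5 and 3 CpG dinucleotides. A match to such short letters is a description of the sequence. The windows of *Gja3*, *Aqp5* and *Lim2* overlap annotated exons and are not shown.

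In WT lenses the 6 genes spanned a wide range of levels. Per kilobase of the principal transcript, *Mip* was at 330126 ± 2730 (SD, n = 2), *Gja3* at 10439 ± 2.02 (SD, n = 2) and *Aqp5* at 2660.3 ± 29.1 (SD, n = 2). *Lim2* followed at 2581 ± 28.4 (SD, n = 2), *Gja1* at 1362 ± 47.9 (SD, n = 2) and *Aqp1* at 886 ± 27.7 (SD, n = 2). *Mip* alone took 0.971% and 0.945% of all reads on genes in the WT libraries and 0.932% and 0.866% in the S100A4 null libraries. Neighbors in this order were apart in both WT libraries, the closest being *Aqp5* at 2640 and 2681 and *Lim2* at 2561 and 2601 per kilobase. In S100A4 null lenses this pair changed places, with *Aqp5* at 2244 and 2285 and *Lim2* at 2536 and 2338, and the other genes kept their order. This swap depended on the length used, since per kilobase of all exons *Aqp5* lay above *Lim2* in both groups (1566 against 986 in S100A4 null, 1839 against 1044 in WT lenses). The exons of all transcripts of *Gja1* together span 10257 bases and its principal transcript 3182. Per kilobase of all exons, *Gja1* was at 423 ± 14.8 (SD, n = 2) in WT lenses, below *Aqp1* at 886 ± 27.7 (SD, n = 2).

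**Figure D1:**
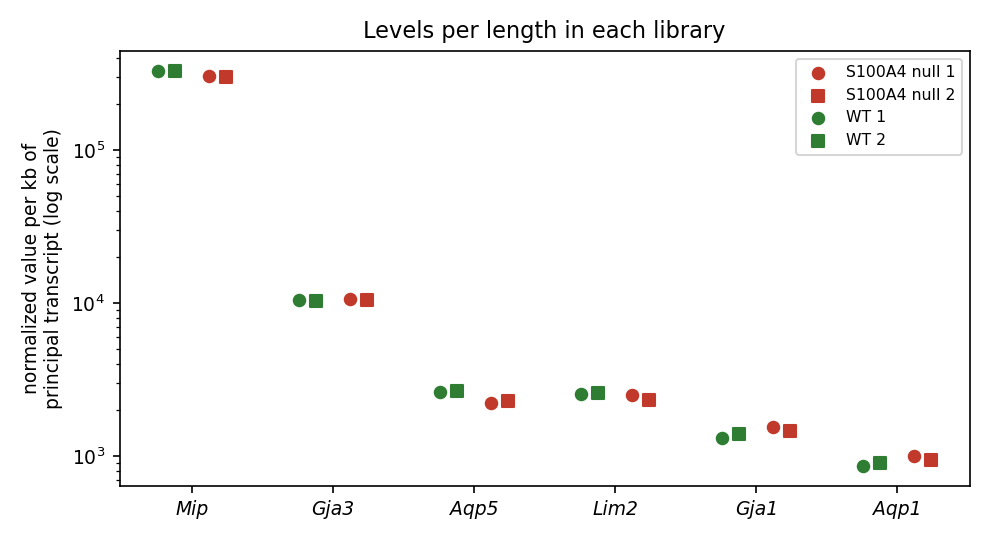
The y axis is the normalized value per kilobase of the principal transcript, on a log scale, and each point is 1 library (red, S100A4 null; green, WT; circles, replicate 1; squares, replicate 2). *Mip* lies highest and *Aqp1* lowest in all 4 libraries, while *Aqp5* lies above *Lim2* in WT and below it in S100A4 null lenses, an order that did not turn per kilobase of all exons.

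Levels of the 6 genes in S100A4 null lenses stayed close to those of WT lenses. A gene was counted as changed when its Benjamini-Hochberg adjusted p was at most 0.05 in a limma fit of log2(value + 1). The fit ran over 14780 genes, those that reached 10 in any library. All 6 genes passed that filter, with a lowest value of 2067 in any library. *Aqp5* was lower in S100A4 null lenses and no other member changed, which makes 1 of 6 lower and 0 of 6 higher, against 1.33% of all genes tested lower, 5.62% higher and 6.96% either. By unadjusted p, 4 of the 6 were under 0.05, as were 17.7% of all genes tested. None reached a 2-fold change, the size the study asked of a changed gene, which 3.65% of the genes tested passed upward, 0.0744% downward and 3.72% either way. The 95% intervals of all 6 log2 fold changes lay between −0.33 and 0.26. The median log2 fold change of the 6 was −0.03, and −0.005 over all genes tested, while the median absolute change was 0.13, and 0.12 over all genes. In each of the 6 genes both S100A4 null values lay on 1 side of both WT values, 3 higher and 3 lower, as was the case in 46.9% of all genes tested (23.7% higher and 23.2% lower). In pooled whole lenses, fewer cells of a type and less mRNA per cell cannot be told apart.

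**Figure D2:**
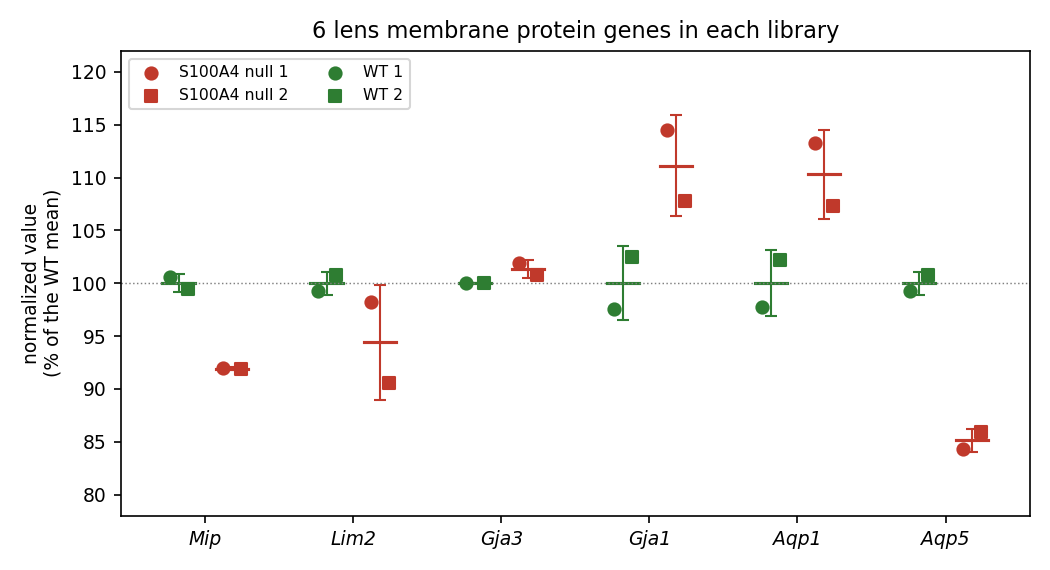
The y axis is the normalized value as a percentage of the gene's WT mean, each point is 1 library, and the bars give the mean and SD of the 2 libraries of a group (red, S100A4 null; green, WT). The S100A4 null values of *Mip*, *Lim2* and *Aqp5* lie below the WT values, those of *Gja3*, *Gja1* and *Aqp1* above, and *Aqp5* is farthest from its WT mean.

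Among the aquaporins, *Aqp5* was at 4033 and 4107 in the S100A4 null libraries and at 4744 and 4818 in the WT libraries. Both S100A4 null values were below both WT values, and the distance between the groups was several times the spread within either. The mean fell by 14.9%, from 4781 ± 52.3 (SD, n = 2) to 4069.6 ± 52.4 (SD, n = 2), and the log2 fold change was −0.23 (standard error 0.05, 95% interval −0.33 to −0.13, limma adjusted p = 0.00134). With the libraries scaled to equal totals the log2 fold change was −0.20 and no longer passed (limma adjusted p = 0.0527), and it did not pass in limma without a trend of variance with expression (adjusted p = 0.291).

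*Mip*, the fiber aquaporin, was at 651160 and 650078 in the S100A4 null libraries and at 711929 and 703652 in the WT libraries. Its S100A4 null values were nearly equal and both lay below the WT values. The log2 fold change was −0.12 (standard error 0.05, 95% interval −0.22 to −0.03), and it did not pass over all genes (limma adjusted p = 0.124). The size depended on the scaling, with −0.02 after quantile normalization (limma adjusted p = 0.443) and −0.09 with equal totals (limma adjusted p = 0.396), while count tests on the recovered reads gave −0.12 and passed (adjusted p = 0.0348 in DESeq2 and 0.029 in edgeR). An lncRNA gene on the opposite strand, *Gm26847* (128230590 to 128232790), overlaps the last exon of *Mip*. It was at 2618 and 2316 in the S100A4 null libraries and at 4059 and 3003 in the WT libraries, and the log2 fold change was −0.50 (standard error 0.08, limma adjusted p = 8.37e-06). Its log2 fold change was −0.29 without WT replicate 1 and −0.72 without WT replicate 2, and it did not pass in DESeq2 (adjusted p = 0.312) or in limma without trend (adjusted p = 0.414). This gene was chosen after its values were seen. Its reads were between 0.356% and 0.570% of those of *Mip* in the 4 libraries. The libraries were stranded, but whether the counting used the strand is not given in the sources used here, so reads from the *Mip* strand counted on *Gm26847* cannot be told apart from its own. In the GENCODE M21 annotation, which was not the version the authors used, no other gene overlaps the exons of the 6.

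*Aqp1*, the epithelial water channel, was at 2638 and 2499 in the S100A4 null libraries and at 2277 and 2380 in the WT libraries. Both S100A4 null values were above the WT values, by about the spread within each group. The log2 fold change was 0.14 (standard error 0.06, 95% interval 0.02 to 0.26, limma adjusted p = 0.164). *Aqp1* and *Aqp5* thus lay on opposite sides of WT, and the ratio of their reads within a library, which no scaling of the libraries can alter, was 0.654 and 0.609 in S100A4 null and 0.480 and 0.494 in WT lenses. Its log2 difference was 0.37, with an exact two-sided permutation p of 0.333, the smallest that 2 libraries against 2 allow.

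Of the connexins, *Gja3* was at 29434 and 29097 in the S100A4 null libraries and at 28877 and 28869 in the WT libraries. The S100A4 null values were the higher ones by a small margin. The log2 fold change was 0.02 (standard error 0.04, limma adjusted p = 0.864), and its 95% interval of −0.06 to 0.10 bounds the change in this fiber connexin in the reported fit. The size depended on the scaling. It was 0.0485 with equal totals (standard error 0.0519, limma adjusted p = 0.794) and 0.0565 with quantile normalization (standard error 0.0272, limma adjusted p = 0.302).

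*Gja1* was at 4965 and 4671 in the S100A4 null libraries and at 4228 and 4443 in the WT libraries. Both S100A4 null values were above both WT values, and the gap between the nearest pair was of the size of the spread within a group. The log2 fold change was 0.15 (standard error 0.05, 95% interval 0.05 to 0.26, limma adjusted p = 0.0688). It passed with quantile normalization of the libraries, at 0.19 (limma adjusted p = 0.0239). The ratio of *Gja1* to *Gja3* reads was 0.169 and 0.161 in S100A4 null and 0.146 and 0.154 in WT lenses, a log2 difference of 0.13 (exact two-sided permutation p = 0.333, the smallest possible here).

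*Lim2*, a member of the PMP22 and EMP family found at fiber cell junctions, was at 2242 and 2067 in the S100A4 null libraries and at 2264 and 2299 in the WT libraries. The first S100A4 null library was close to WT and the second lower. The log2 fold change was −0.08 (standard error 0.06, 95% interval −0.21 to 0.04, limma adjusted p = 0.509). Without the first S100A4 null library it was −0.14, and without the second −0.03.

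The spread between replicate libraries differed among the 6 genes. In WT lenses the coefficient of variation ran from 0.0193% for *Gja3* to 3.51% for *Gja1*, and in S100A4 null lenses from 0.118% for *Mip* to 5.76% for *Lim2*. With 2 libraries per group such a spread is itself poorly known, and the limma fit draws it toward that of genes of like level.

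**Figure D3:**
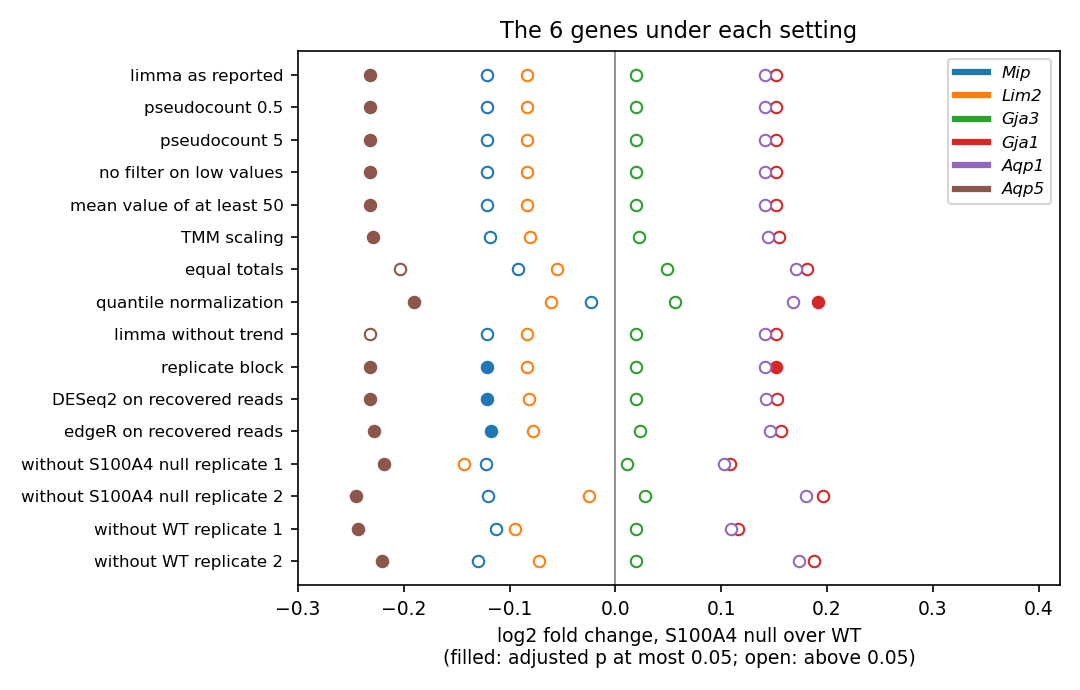
The x axis is the log2 fold change of S100A4 null over WT, with 1 line for each way of processing the data, and colors mark the genes. Filled points have an adjusted p of at most 0.05, and *Aqp5* is filled in the reported fit and in 13 of the 15 alternatives.

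The profiles of *Gja1* and *Aqp1* over the 4 libraries were nearly parallel. Likeness was measured as the root mean square difference of the log2 values, each gene centered on its mean over the 4 libraries, among 10081 genes whose mean value reached 100, and it is given as a description. *Aqp1* was the gene most like *Gja1* (0.00699), followed by *Ptprd* (0.00882), which encodes a receptor tyrosine phosphatase. The ratio of *Gja1* to *Aqp1* reads was 1.88 and 1.87 in S100A4 null and 1.86 and 1.87 in WT lenses. For *Aqp1* the nearest genes were *Chchd1* (0.00558) and *Fbrs* (0.00580), and for *Gja3* they were *Rack1* (0.00239), a ribosome-associated scaffold, and *Wipi2* (0.00394), an autophagy protein. *Krcc1* (0.00308) and the small GTPase gene *Cdc42* (0.00420) were nearest to *Mip*, *Mocs3* (0.00850) and *Zfand6* (0.0127) to *Aqp5*, and the G protein gene *Gnaq* (0.00396) and *Chmp3* (0.00499) to *Lim2*. With only 4 libraries, many genes lie close to each other on this measure.

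Of 7 connexin genes tested, *Gjd2* was higher and none was lower. Of all genes tested, 5.62% were higher and 1.33% lower in the reported fit. These shares are the background for this count and for those of every list that follows, in that fit. *Gjd2*, which encodes connexin 36 of electrical synapses between neurons, was at 30.8 and 34.5 in the S100A4 null libraries and at 5.22 and 2.19 in the WT libraries. Its S100A4 null values were well above WT, and the log2 fold change was 2.91 (standard error 0.61, limma adjusted p = 0.000862). It rested on 70 reads against 7, a ratio of 8.68 with a 95% counting interval of 4.0 to 22.4, which covers counting error only. The call was lost without S100A4 null replicate 1 (limma adjusted p = 0.0749), without S100A4 null replicate 2 (limma adjusted p = 0.102) and in limma without trend (adjusted p = 0.0998). *Gje1*, a connexin gene expressed in the lens, was at 1493 and 1397 in S100A4 null and at 1443 and 1462 in WT lenses, so the groups overlapped. *Gjb6* (161 and 181, against 204 and 189), *Gjc1* (90.8 and 126, against 96.1 and 107) and *Gja5* (13.7 and 5.07, against 20.9 and 10.9) did not pass either. The pannexin genes *Panx1* and *Panx2*, whose products form channels related to gap junction proteins, had log2 fold changes of −0.29 and −0.04 and did not pass.

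Of 8 aquaporin genes tested, *Aqp5* was lower and none was higher, with a median log2 fold change of −0.05. *Aqp4*, the main aquaporin of glia, was at 753 and 698 in S100A4 null and at 659 and 702 in WT lenses, and the groups overlapped. *Aqp3*, which also carries glycerol, was at 43.7 and 25.3 against 65.8 and 55.8, and the log2 fold change was −0.84 (standard error 0.31, limma adjusted p = 0.109). It passed with quantile normalization (limma adjusted p = 0.0464). Its log2 fold change was −1.23 without S100A4 null replicate 1 and −0.46 without S100A4 null replicate 2. *Aqp8*, *Aqp9* and *Aqp11* had values under 66 in every library, and their S100A4 null and WT values overlapped.

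Of the 5 genes of the family of *Lim2*, *Emp1* was higher, at 84.8 and 72.0 in S100A4 null and 32.4 and 28.5 in WT lenses, and the log2 fold change was 1.34 (standard error 0.29, limma adjusted p = 0.00142). It did not pass without S100A4 null replicate 1 (limma adjusted p = 0.12) or in limma without trend (adjusted p = 0.0642). *Pmp22*, a myelin protein gene and the most abundant of the family in the lens, was at 8008 and 8489 against 8442 and 8465. *Emp2* had a log2 fold change of −0.09 and *Emp3* of 1.05 (standard error 0.44, limma adjusted p = 0.18), and neither passed.

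**Figure D4:**
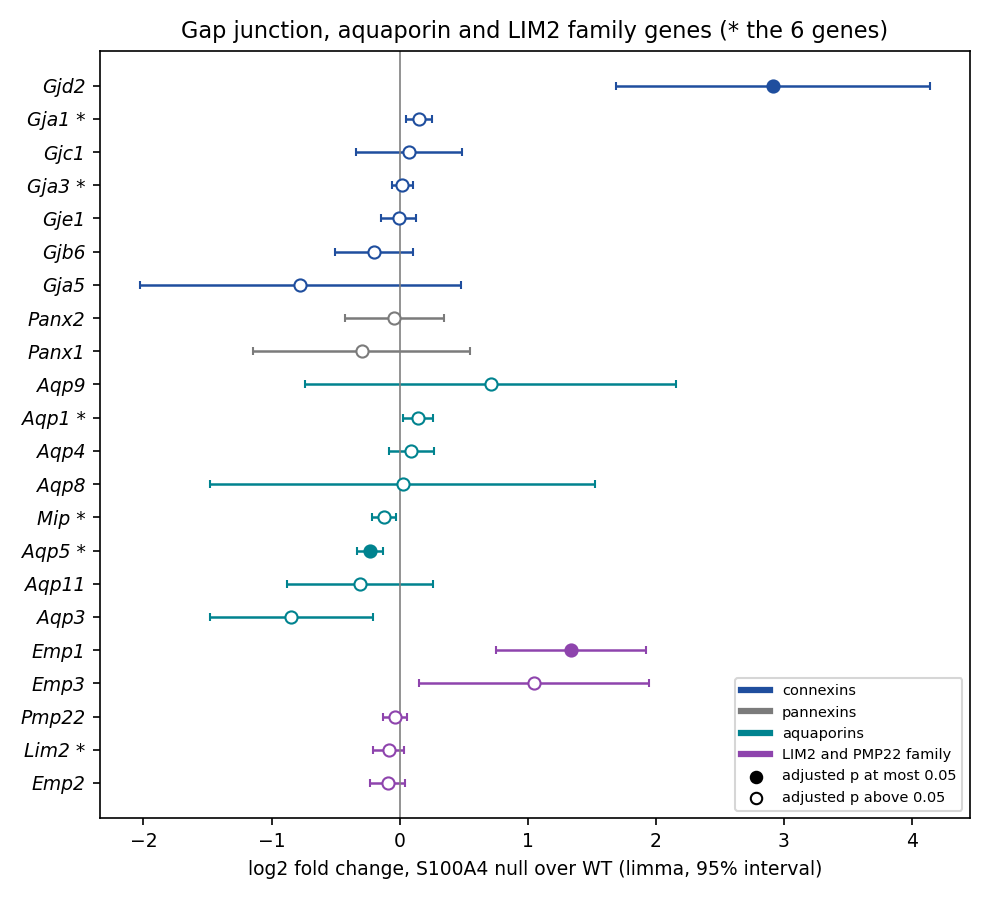
The x axis is the log2 fold change of S100A4 null over WT with its 95% interval, for 7 connexin, 2 pannexin, 8 aquaporin and 5 *Lim2* family genes, with an asterisk at the 6 genes described here. Filled points passed the test, which are *Gjd2*, *Aqp5* and *Emp1*, and the intervals of the 6 genes lie between −0.33 and 0.26.

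A further list held 16 tested genes of proteins that join or anchor the fiber membrane, among them N-cadherin and the beaded filament proteins. None was higher and 2 were lower, against 5.62% and 1.33% of all genes tested, and the median log2 fold change was −0.07, against −0.005 over all genes. *Ppl*, which encodes periplakin, was at 6266 and 6756 in S100A4 null and at 7113 and 7473 in WT lenses, and the log2 fold change was −0.16 (standard error 0.05, limma adjusted p = 0.0295). *Cdh2*, which encodes N-cadherin of fiber cell adhesion, was at 6520 and 6966 against 7422 and 7615, also −0.16 (standard error 0.05, limma adjusted p = 0.0332). In both genes the S100A4 null values lay below WT. Neither passed with equal totals, with quantile normalization, in limma without trend, in DESeq2, or without S100A4 null replicate 1, WT replicate 1 or WT replicate 2, and *Cdh2* did not pass in edgeR either. Over the alternatives the adjusted p ran from 0.00317 to 0.519 for *Ppl* and from 0.00496 to 0.503 for *Cdh2*, across limma, edgeR and DESeq2. *Msn*, which encodes moesin, had a log2 fold change of −0.24 and did not pass (limma adjusted p = 0.0694), while without WT replicate 1 it did (limma adjusted p = 0.0482). *Bfsp1*, the most abundant of the list, had a log2 fold change of −0.06, *Tjp1* of −0.03 and *Ctnnb1* of −0.005.

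Markers of lens cells were at about WT level or slightly below. The median log2 fold change was −0.05 for fiber and −0.06 for epithelium markers, against −0.005 over all genes tested. Both S100A4 null values lay below both WT values in 7 of 13 fiber and 3 of 5 epithelium markers. They lay above them in 0 and 1. Over all genes tested the shares were 23.2% below and 23.7% above. Of 13 lens fiber markers, *Grifin*, which encodes a galectin-related protein of the fibers, was lower and none was higher. *Grifin* was at 103287 and 103497 in S100A4 null and at 125413 and 121829.5 in WT lenses, and the log2 fold change was −0.26 (standard error 0.04, limma adjusted p = 1.24e-05), a call lost in limma without trend (adjusted p = 0.259). Without S100A4 null replicate 2, 4 of the fiber markers were lower, as were 1.11% of all genes tested. The summed level of the fiber markers, led by *Cryaa*, was 28803016 and 30917976 against 31152265 and 31184605. None of 5 lens epithelium markers passed in either direction, with sums of 15338 and 15624 against 16347 and 16401 and *Foxe3* as the most abundant. *Gja1* and *Aqp1*, which are used as markers of the epithelium, thus lay above WT while the sum of these 5 markers lay below it.

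Markers of several other cells of the eye were higher in S100A4 null lenses, and *Gja1*, *Aqp1* and *Gjd2* are also known from such cells. All 7 rod markers were higher, with sums of 8439 and 8383 against 2048 and 2197 and *Gnat1*, the rod transducin gene, as the most abundant. Of 6 Müller glia markers 4 were higher (*Rlbp1*, *Glul*, *Slc1a3* and *Lhx2*), with sums of 6295 and 6166 against 2121 and 2324, led by *Glul*. In limma without trend 2 of the 6 were higher, against 1.21% of all genes tested. All 4 ciliary body markers were higher (*Best2*, *Optc*, *Col9a1* and *Col9a2*), with sums of 7168 and 6767 against 1379 and 1719, led by *Optc*. In each of these lists the S100A4 null sums were between 2.80 and 4.50 times the WT sums. Of 6 pigment cell markers 5 were higher (*Tyr*, *Dct*, *Tyrp1*, *Pmel* and *Mlana*), with sums of 1241 and 1299 against 210 and 302, led by *Dct*. Macrophage markers were of low level, with 3 of 5 higher (*C1qa*, *C1qb* and *Csf1r*), sums of 238 and 207 against 82.5 and 66.8, and *Csf1r* as the most abundant. In limma without trend 0 of 5 macrophage markers passed, and in DESeq2 1 passed, against 1.21% and 3.83% of all genes tested higher. Without S100A4 null replicate 1 the log2 fold changes were 1.11 for *C1qa*, 2.90 for *C1qb* and 1.01 for *Csf1r*. In the reported fit they were 1.51, 2.63 and 1.22. Of 5 red blood cell markers *Hbb-bs* was higher and was the most abundant, with sums of 294 and 259 against 169 and 98.5. Endothelial markers were mixed, with sums of 254 and 269 against 188 and 233. Of these 6, *Kdr* was higher, at 74.5 and 60.8 against 9.40 and 9.85. The most abundant, *Vwf*, lay below WT, at 72.8 and 70.9 against 90.8 and 96.4, and did not pass. Both S100A4 null values lay above both WT values in 2 of the 6 and below them in 2, against 23.7% and 23.2% of all genes tested. In limma without trend 3 pigment cell markers passed and *Hbb-bs* did not, against 1.21% of all genes tested higher. Without S100A4 null replicate 2 the log2 fold changes were 2.14 for *Tyr*, 3.29 for *Mlana* and 1.03 for *Hbb-bs*. In the reported fit they were 2.55, 3.36 and 1.11. The 2 corneal epithelium markers tested did not pass, with sums of 1557 and 1714 against 1637 and 1643, led by *Aldh3a1*. None of the marker genes tested was at 0 in any library. The part of such cells in the values of *Gja1*, *Aqp1*, *Gjd2* and *Emp1* was not tested.

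**Figure D5:**
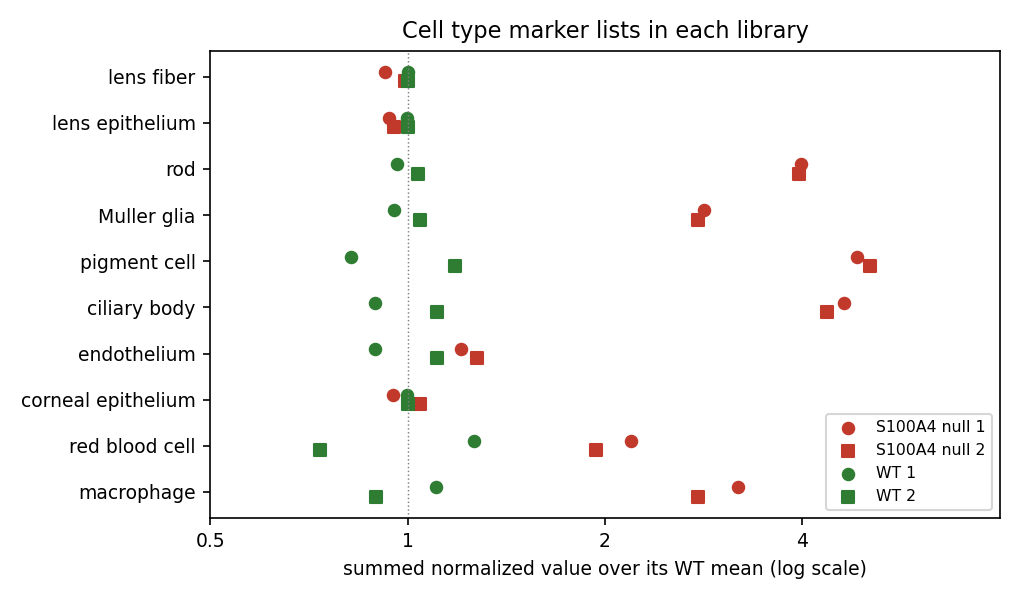
The x axis is the summed normalized value of a marker list in a library divided by its WT mean, on a log scale, with 1 point for each library (red, S100A4 null; green, WT). Lens fiber, lens epithelium and corneal epithelium sums lie near 1 in all 4 libraries, and those of rods, Müller glia, pigment cells and ciliary body lie between 2.80 and 4.96 times WT on average.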

How the data were processed

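RNA of pooled mouse lenses was measured by stranded mRNA-seq in 2 S100A4 null and 2 WT libraries, with groups and replicate numbers taken from the sample labels. The authors' steps were trimming by Trim Galore, mapping by STAR to GRCm38 (mm10 in the submitters' processing notes), HTSeq counting of uniquely mapped reads, a minimum of 10 reads in some library and DESeq2 normalization. Tool versions are not given in the sources used here. The deposited signal values are HTSeq counts over the size factor of each library (1.168 and 0.987 in S100A4 null, 0.958 and 0.913 in WT). Dividing by the worth of 1 read gave whole numbers for 100% of the values (tolerance 0.05), which were used as read counts. The smallest number of reads taken to show a gene was 3, a value of 2.57 and 3.04 in S100A4 null and 3.13 and 3.28 in WT libraries, which covers counting error only. Of 14924 genes, 14782 matched a symbol, and lengths and coordinates came from GENCODE M21 (GRCm38). No column of values was without a sample (0 columns).

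The groups were compared with limma 3.58.1 (lmFit, eBayes with trend) in R 4.3.3 on log2(value + 1), after leaving out 144 genes with no value of at least 10, and p-values were adjusted by Benjamini and Hochberg over the 14780 genes tested. The added 1 makes fold changes of genes with few reads too small. The fits were also run on simulated data, from which no result is drawn here. Alternatives were pseudocounts of 0.5 and 5, no filter, a mean value of at least 50, TMM, equal totals, quantile normalization, limma without trend, the replicate number as a block, DESeq2 1.42.0 and edgeR 4.0.16 on the recovered reads, and each library left out in turn. Ratios of reads within a library were compared by exact permutation tests. Python 3.11.15 was used for the rest.

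The members, lists and tests were chosen with earlier results of these data known. Named were the 6 genes, *S100a4*, the genes of the connexin, pannexin, aquaporin, *Lim2* family and membrane lists, the genes past the threshold and the most abundant gene of each marker list, and the 2 genes most like each member. *Gm26847*, which overlaps *Mip*, was also named, after its values were seen. Levels per length had been planned with exonic length, and the principal transcript was added after the data were seen. There are 6 genes of the lists, 3 connexins, 2 membrane protein partners and 1 rod marker, that are not reported here. They were taken out of the lists after the results were first computed, and with them 1 of 10 connexins was higher and none lower, 0 of 18 membrane genes were higher and 2 lower, and 8 of 8 rod markers were higher.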

Additional observations from a re-analysis of the deposited data

How the results depend on the processing

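All 6 log2 fold changes kept their direction under the 15 alternatives. *Aqp5* passed in 13 of them, with adjusted p from 3.18e-05 to 0.291. It fell short with equal totals (−0.20, limma adjusted p = 0.0527) and without limma's trend (−0.23, adjusted p = 0.291). Each of these left 0 of the 6 genes lower, against 0.372% and 0.0541% of all genes tested. *Gja1* passed with quantile normalization (0.19, limma adjusted p = 0.0239), which made 1 of the 6 genes higher, against 4.14% of all genes tested. With each library left out in turn, which leaves a group with a single library assumed to vary like the other group, the log2 fold changes ran from 0.11 to 0.20 for *Gja1*, 0.01 to 0.03 for *Gja3*, −0.13 to −0.11 for *Mip*, 0.10 to 0.18 for *Aqp1*, −0.25 to −0.22 for *Aqp5* and −0.14 to −0.03 for *Lim2*.

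The replicate numbers are only shared numbers. Deviations of libraries with the same number correlated at 0.012 over 14780 genes, with 2 pairs of separate pools. With the number as a block, *Gja1* (0.15, limma adjusted p = 0.018) and *Mip* (−0.12, limma adjusted p = 0.0365) passed, which gave 1 of the 6 genes higher and 2 lower, against 982 genes higher (6.64%) and 348 lower (2.35%) of all tested. *Msn* passed as lower (limma adjusted p = 0.0246). On the recovered reads, *Mip* passed in DESeq2 (−0.12, adjusted p = 0.0348) and in edgeR (−0.12, adjusted p = 0.029), which gave 2 of the 6 lower in each, against 0.61% and 1.22% of all genes tested.

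Over all genes, the reported fit called 831 higher and 197 lower, of which 539 and 11 were at least 2-fold. A mean value of at least 50 gave 549 higher, and 281 and 6 at 2-fold, from fewer genes tested. Equal totals gave 55 lower and quantile normalization 23 lower at 2-fold. Without limma's trend 179 were higher and 8 lower, with 174 and 7 at 2-fold. DESeq2 called 571 higher and 91 lower, with 6 lower at 2-fold, and edgeR 859 higher and 181 lower. With each library left out, 404 to 795 were higher and 87 to 161 lower, with 275 to 535 and 6 to 13 at 2-fold. Without S100A4 null replicate 1 there were 404 higher and 87 lower, without S100A4 null replicate 2 there were 443 higher, and without WT replicate 1 or 2 there were 111 or 95 lower. The causes were not tested. The counts of the lists were equal to the reported ones or within 1.5 times of them in 412 cases and moved further in 38. The 412 include counts with no gene passing in either fit, which say little about stability. The lowest value of the 6 genes in any library was 2067, and having 2 libraries per group limits the precision of each comparison.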
